A study of Mus musculus with 6 samples.

Results

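Imprinted genes that are known from stem cells were followed in mouse hematopoietic stem and progenitor cells (HSPCs) with and without the miRNA cluster Mirc11. The genes were H19, Meg3, Rian, Dlk1, Igf2, Igf2r, Grb10, Peg3, Ndn and Plagl1, 10 in all and chosen by name, and all 10 were found among the 23997 gene symbols of the table and passed the minimum for testing, as did 15662 genes in all. RNA came from Lin-Sca1+cKit+ (LSK) bone marrow cells of C57BL/6 mice aged 6 to 8 weeks in normal hematopoiesis, with 3 wildtype and 3 Mirc11-/- libraries that carry the same batch label. Mirc11-/- mice lack Mir23a, Mir27a and Mir24-2 in every cell, not in blood cells alone, and each RNA preparation pooled the sorted cells of several mice of 1 genotype. Libraries held 15029379 to 17051541 reads in genes. Values are normalized counts, reads per gene scaled by the size factor of each library, so that 1 unit is close to 1 read.

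An imprinted gene is read mainly from the chromosome copy of 1 parent, through DNA methylation laid down in the germ line. Many imprinted genes control growth, and several are known to be higher in long-term hematopoietic stem cells than in dividing progenitors. Loss of the control region of H19 or of the Dlk1-Meg3 locus in blood cells is known to bring stem cells out of rest, through insulin-like growth factor and PI3K-mTOR signalling. LSK cells hold these stem cells as a small part, beside more numerous multipotent progenitors. The counts do not tell the parental copies apart, so imprinting itself was not measured.

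The miRNAs that Mirc11-/- mice lack are shown here because they define the genotype and because their seeds can be looked up in the imprinted transcripts. The mature sequences are from RefSeq (GRCm38.p6), 5′ to 3′, with the seed, bases 2 to 8, in capitals. The first 3 lie on the plus strand of chromosome 8, at chr8:84208563-84208583, chr8:84208727-84208747 and chr8:84208875-84208896. The fourth, miR-27b-3p at chr13:63300760-63300780, has the same seed as miR-27a-3p and belongs to the paralogous cluster, which these mice keep. That cluster also holds miR-23b and Mir24-1, whose mature miR-24-3p is identical to that of Mir24-2.
mmu-miR-23a-3p: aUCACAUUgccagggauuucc
mmu-miR-27a-3p: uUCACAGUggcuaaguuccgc
mmu-miR-24-3p: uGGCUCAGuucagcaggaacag
mmu-miR-27b-3p: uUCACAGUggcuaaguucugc

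The libraries carried the genotype of their labels. Over the miRNA genes themselves, Mir23a had 15.8, 15.9 and 19.3 normalized counts in the wildtype libraries, Mir27a 9.86, 15.9 and 28.4, and Mir24-2 7.89, 20.8 and 44.6. All 3 genes were at 0 in every Mirc11-/- library, at least 17-fold, 18.1-fold and 24.5-fold lower against a limit of 3 reads over the group. All 10 of 10 LSK marker genes were detected in each library, with summed normalized counts of 37710 to 44410 in wildtype and 25490 to 44160 in Mirc11-/-. Among the Mirc11-/- libraries, replicates 1 and 2 stood apart from replicate 3 and from the wildtype along the first principal component (54.6 and 25.5 against -26.2 to -13.5).

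Matches to the 3 seeds were searched on the sense strand as AATGTGA (the miR-23a seed), ACTGTGA (miR-27a) and CTGAGCC (miR-24), in the longest 3′ UTR that GENCODE M21 annotates for each coding gene. Of the 7 coding members, 3 held a match (Dlk1, Ndn and Plagl1) and 4 held none (Igf2, Igf2r, Grb10 and Peg3). Across the 13558 genes tested that have a 3′ UTR, 16.1% held the first, 16.8% the second, 18.8% the last and 39.8% any of the 3. The matches in the coding members are printed with 11 bases on each side, 5′ to 3′ along the transcript, with the match in capitals. They lie on the plus strand at chr12:109460803-109460809 in Dlk1, chr7:62349932-62349938 in Ndn, and chr10:13129799-13129805 and chr10:13129935-13129941 in Plagl1 (GRCm38). The Ndn match falls inside the GENCODE transcript but just past the end that RefSeq gives the gene. The Dlk1 and Ndn matches are followed by an A, which with the seed match makes the longer type of site.
Dlk1, miR-27a: cttgaccactcACTGTGAaaagggctaaa
Ndn, miR-27a: gcattaaagatACTGTGAaataatttctt
Plagl1, miR-23a: gatgttgttccAATGTGAgttacgacttc
Plagl1, miR-27a: gtgttttgtggACTGTGAtactcattatg

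In the whole transcripts of the noncoding members, H19 held 1 miR-23a match, Rian 1 miR-27a match and Meg3 3 miR-27a and 3 miR-24 matches. The stretches searched were 2286 bases in H19, 8089 in Rian and 14548 in Meg3, against a median 3′ UTR of 1111 bases. No share over all genes was computed for whole transcripts. The Rian match spans an exon junction. A match of letters does not show binding, and the values below are given without reference to it.

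Divided by exon length, the 10 genes spanned a wide range of levels in HSPCs. Grb10 and Igf2r led, at 94.1 ± 20.8 and 92.3 ± 3.45 normalized counts per kb of exon in wildtype (SD, n = 3), and their libraries overlapped. Ndn came next at 10.3 ± 3.69 per kb, below every library of Grb10 and Igf2r, followed by Meg3 at 5.61 ± 2.31 per kb, whose libraries overlapped those of Ndn. Dlk1 at 3.27 ± 0.155 and H19 at 2.91 ± 1.95 per kb overlapped each other and Meg3. Rian was at 1.16 ± 0.616 per kb, Igf2 at 0.763 ± 0.390, Plagl1 at 0.370 ± 0.183 and Peg3 at 0.228 ± 0.112, and each of these overlapped the next in the order. The Ndn level depends on the annotation, since the RefSeq gene is 1.65 kb and the GENCODE exons 3.69 kb long, and at the RefSeq length it was 23.1 ± 8.24 per kb, which leaves its place in the order. H19, Igf2, Peg3 and Plagl1 each had fewer than 30 reads summed over the 3 libraries of either genotype.

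**Figure D1:**
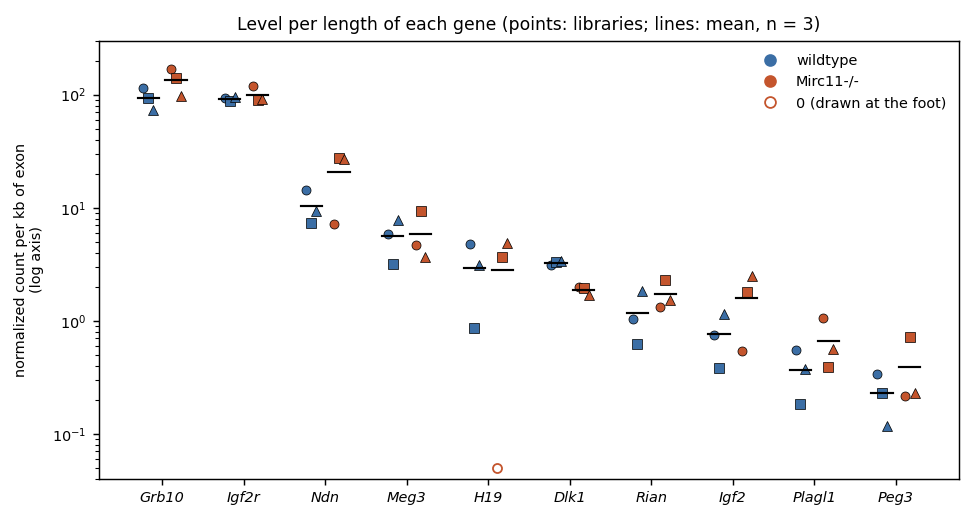
Normalized count per kb of exon on a log axis for the 10 imprinted genes, ordered by mean level, with 1 point per library (circle, square and triangle for replicates 1, 2 and 3) and a line at the mean of each genotype (n = 3). Grb10 and Igf2r stand well above the other 8 genes, and the H19 value of Mirc11-/- replicate 1, which was 0, is drawn as an open point at the foot.

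None of the 10 imprinted genes passed the test between genotypes. By limma, 0 of 10 had an adjusted p under 0.05, against 0.0319% of all genes tested (1 higher, 0.00638%, and 4 lower, 0.0255%). Grb10 alone had an unadjusted p under 0.05, in 1 of 10 members beside 8.24% of all genes (4.15% higher, 4.09% lower). edgeR and DESeq2, which called 0.0255% and 0.798% of all genes, also called 0 of 10, with 1 and 2 members at an unadjusted p under 0.05 (8.66% and 7.74% of all genes), and DESeq2 gave no adjusted p for H19, Igf2, Peg3 and Plagl1. The log2 fold change was above 0 for 8 members and below 0 for 2, beside 7910 above and 7752 below 0 of all genes tested. The median was 0.49 against 0.00 for all genes. Of these 8 members, Meg3 and Igf2r changed sign under 3 alternatives each. Igf2, Peg3 and Plagl1 had fewer than 30 reads in either genotype. By parental copy, 4 of 5 maternally and 4 of 5 paternally expressed genes were above 0. With 3 libraries against 3 an exact permutation test of a single gene cannot go below 0.1. The p-values measure the spread between RNA preparations, each a pool of mice, and not that between single mice.

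**Figure D2:**
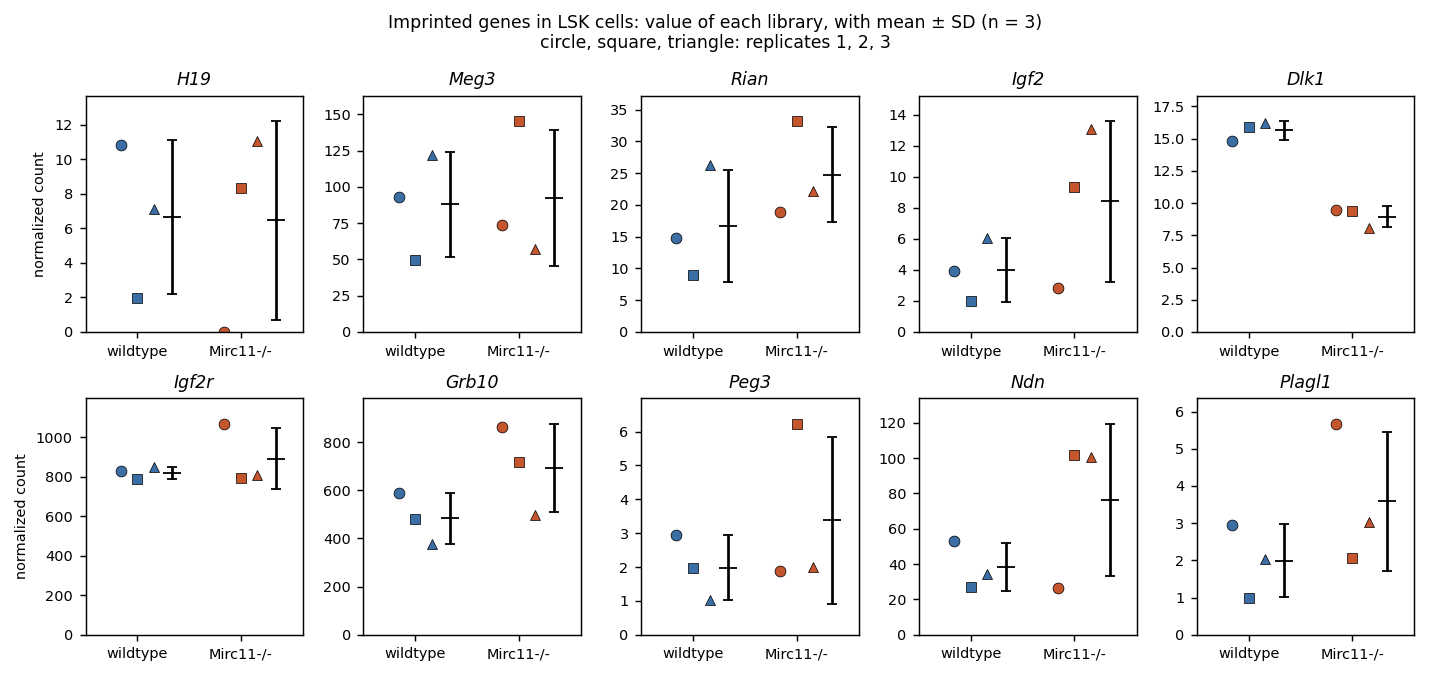
Normalized count of each imprinted gene in each library, with circles, squares and triangles for replicates 1, 2 and 3, and the mean ± SD of each genotype beside them (n = 3, linear axes from 0). Dlk1 is the single gene whose wildtype values (14.8 to 16.2) all lie above the Mirc11-/- values (8.05 to 9.46), while for the other 9 genes the genotypes overlap.

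Among the noncoding RNAs, Meg3 is the maternally expressed long RNA of the Dlk1-Dio3 cluster. Meg3 (chromosome 12, 109540996 to 109571729, RefSeq on GRCm38.p6 as for the other genes) had 92.7, 49.6 and 122 normalized counts in wildtype and 73.8, 145 and 57.4 in Mirc11-/-. The highest and the second lowest value both came from Mirc11-/- libraries, and the genotypes overlapped. The log2 fold change, Mirc11-/- minus wildtype on the log2(value + 1) scale, was 0.05 (SE 0.41, 95% interval -0.88 to 0.97, limma adjusted p = 0.986). Its sign turned when wildtype replicate 2 (-0.32) or Mirc11-/- replicate 2 (-0.34) was left out.

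Rian, which lies downstream of Meg3 on the same strand and hosts small nucleolar RNAs (chromosome 12, 109603945 to 109661716), had 14.8, 8.93 and 26.3 normalized counts in wildtype and 18.9, 33.2 and 22.1 in Mirc11-/-. Both RNAs were lowest in wildtype replicate 2 and highest in Mirc11-/- replicate 2. Rian had a log2 fold change of 0.63 (SE 0.43, 95% interval -0.36 to 1.61, limma adjusted p = 0.697), and it stayed above 0 under each alternative. It was 0.27 without wildtype replicate 2, 1.00 without wildtype replicate 3, 0.40 without Mirc11-/- replicate 2 and 1.41 with array weights.

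H19, the maternally expressed RNA that shares its enhancers with Igf2 and is the precursor of miR-675 (chromosome 7, 142575530 to 142578146), had 10.8, 1.98 and 7.09 normalized counts in wildtype and 0, 8.31 and 11.1 in Mirc11-/-. The reads were 20 in all in wildtype and 19 in Mirc11-/-. Mirc11-/- replicate 1 had none, which at its depth allows up to 2.84 normalized counts by counting error alone. For H19 the log2 fold change was -0.45 (SE 0.96, 95% interval -2.63 to 1.73, limma adjusted p = 0.922), an interval too wide to give a direction. Without Mirc11-/- replicate 1 it was 0.69.

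Dlk1 came closest of the 10 to a clean split. It encodes a transmembrane ligand of the Delta-like kind, is read from the paternal copy upstream of Meg3 (chromosome 12, 109452485 to 109463336), and had 14.8, 15.9 and 16.2 normalized counts in wildtype and 9.46, 9.35 and 8.05 in Mirc11-/-. All Mirc11-/- libraries were below all wildtype libraries, as was so for 6.53% of all genes tested (6.42% had the opposite order). At a log2 fold change of -0.74 (SE 0.33, 95% interval -1.50 to 0.011, limma adjusted p = 0.600), the difference did not pass the test. It kept its sign under each alternative, from -0.82 to -0.68. These values rest on 47 and 27 reads in all. The spread between libraries (SD 0.743 and 0.783) was smaller than counting error alone gives at this depth (SD 3.95 and 2.99). DESeq2, on the reads, gave Dlk1 an adjusted p of 0.806.

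Igf2, the paternally expressed growth factor next to H19 (chromosome 7, 142650768 to 142666816), had 3.94, 1.98 and 6.08 normalized counts in wildtype and 2.84, 9.35 and 13.1 in Mirc11-/-. The values of Mirc11-/- replicates 2 and 3 were above the wildtype and that of replicate 1 was within it. This gave a log2 fold change of 0.81 (SE 0.61, 95% interval -0.57 to 2.18, limma adjusted p = 0.727), from 12 against 25 reads in all. It moved to 1.36 without Mirc11-/- replicate 1, to 0.42 without Mirc11-/- replicate 3, to 0.48 without wildtype replicate 2 and to 1.52 with the mean of the erythroid markers described below as a covariate, with an adjusted p over 0.05 in each.

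**Figure D3:**
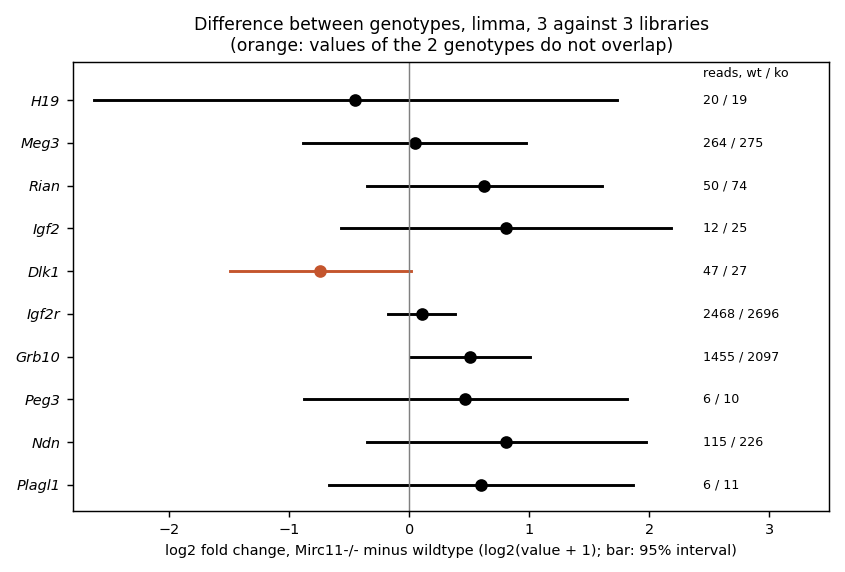
Log2 fold change of each imprinted gene (Mirc11-/- minus wildtype, point) with its 95% interval from limma (line), and the reads summed over the 3 libraries of each genotype at the right. The interval of Grb10 runs from 0.0087 to 1.006, that of Dlk1 (orange, genotypes without overlap) reaches 0.011, and those of the other 8 genes hold 0.

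Igf2r, the maternally expressed receptor that takes IGF2 to the lysosome (chromosome 17, 12682406 to 12769706), was measured most precisely. It had 827, 787 and 847 normalized counts in wildtype and 1068, 794 and 807 in Mirc11-/-. The value of Mirc11-/- replicate 1 was the highest, and the other two lay within the wildtype range. Its log2 fold change was 0.10 (SE 0.12, 95% interval -0.18 to 0.38, limma adjusted p = 0.830), and without Mirc11-/- replicate 1 it was -0.035. Airn, the noncoding RNA that overlaps Igf2r on the opposite strand and silences it on the paternal copy, had 5.67 to 12.1 normalized counts in the 6 libraries.

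Grb10, an adaptor that binds and dampens the insulin and IGF1 receptors (chromosome 11, 11930499 to 12037428), had 590, 482 and 376 normalized counts in wildtype and 862, 719 and 497 in Mirc11-/-. Mirc11-/- replicates 1 and 2 were above every wildtype library and replicate 3 was within the wildtype range. Between genotypes the log2 fold change was 0.51 (SE 0.22, 95% interval 0.0087 to 1.006, limma adjusted p = 0.597), and edgeR and DESeq2 gave adjusted p-values of 0.565 and 0.413. The limma log2 fold change was 0.33 without Mirc11-/- replicate 1 and 0.34 without wildtype replicate 3. It was 0.66 without wildtype replicate 1 and 0.73 without Mirc11-/- replicate 3 (limma adjusted p = 0.0553).

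The Grb10 values followed those of the erythroid markers across the libraries. The first principal component over all genes tested put the libraries in the same order as Grb10. It was -13.5, -20.9 and -26.2 in wildtype and 54.6, 25.5 and -19.5 in Mirc11-/-. The pattern was therefore not shown to be particular to Grb10, and the share of all genes that follow it was not computed. The 25 erythroid markers, among them hemoglobin and the carbonic anhydrase Car2, summed to 38700, 29110 and 27620 normalized counts in wildtype and 69250, 63190 and 29620 in Mirc11-/-. The libraries with the highest 2 sums were the ones with the highest 2 Grb10 values, and Mirc11-/- replicate 3 was within the wildtype range for both. All 25 markers had a log2 fold change above 0 (median 0.94). limma, edgeR and DESeq2 each called 0 of them, and put 10, 21 and 13 at an unadjusted p under 0.05. Hba-a1 and Hba-a2 had identical values, as had Hbb-b1 and Hbb-bs, and with each pair counted once these were 10, 19 and 12 of 23 markers. With the mean of these markers as a covariate, the log2 fold change of Grb10 was 0.06 (SE 0.13, limma adjusted p = 0.90). That mean was itself higher in Mirc11-/- replicates 1 and 2 than in any wildtype library. The fit therefore cannot tell genotype from the erythroid markers, and the cause of the Grb10 values was not tested. The sort had removed cells with the erythroid surface marker Ter119. In bulk RNA, more cells of a type and more RNA per cell cannot be told apart.

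Ndn was the most abundant of the nuclear factors. Necdin, its product, is known to restrain cell division in neurons and in stem cells, and the gene (chromosome 7, 62348277 to 62349928) is paternally expressed from the Prader-Willi cluster. Ndn had 53.3, 26.8 and 34.5 normalized counts in wildtype and 26.5, 102 and 101 in Mirc11-/-. Mirc11-/- replicates 2 and 3 were above all wildtype libraries and replicate 1 was just below the lowest wildtype library. Ndn had a log2 fold change of 0.81 (SE 0.51, 95% interval -0.35 to 1.97, limma adjusted p = 0.671), which moved to 1.44 without Mirc11-/- replicate 1 (limma adjusted p = 0.326), to 0.49 without replicate 2 and to 0.50 without replicate 3. DESeq2 gave an adjusted p of 0.553.

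Markers of other blood cells were read beside Ndn, since Mirc11-/- replicate 1 differed from replicates 2 and 3. All 12 of 12 lymphoid markers were detected, 7 with a log2 fold change above and 5 below 0, and they summed to 11150, 11500 and 14560 normalized counts in wildtype and 6955, 7232 and 13010 in Mirc11-/-. Igll1, of the pre-B cell receptor, had 5.92, 12.9 and 4.05 normalized counts in wildtype and 11.3, 36.3 and 36.2 in Mirc11-/-, while Il7r (log2 fold change -0.62), Dntt (-0.55) and Rag2 (-0.54) were on the other side of 0. The 12 myeloid markers, also 7 above and 5 below 0, summed to 209400, 216500 and 177600 in wildtype and 252400, 196500 and 151400 in Mirc11-/-. Within that genotype, replicate 1 had the highest myeloid sum and the lowest lymphoid sum. The lymphoid sum of replicate 2, which had the highest Ndn value, was close to that of replicate 1. The sort had removed cells with B220, CD11b or Gr1 on their surface, and the part of any remaining ones in the Ndn values was not tested.

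Peg3, a zinc finger protein of the paternal copy (chromosome 7, 6703892 to 6730462), and Plagl1, a zinc finger protein that slows the cell cycle (chromosome 10, 13090832 to 13131694), were near the limit of detection. Peg3 had 2.96, 1.98 and 1.013 normalized counts in wildtype and 1.89, 6.23 and 2.01 in Mirc11-/-, from 6 and 10 reads in all. Plagl1 had 2.96, 0.992 and 2.03 in wildtype and 5.67, 2.08 and 3.02 in Mirc11-/-, from 6 and 11 reads in all. A change between genotypes was not detectable for either at this depth, with log2 fold changes of 0.47 (95% interval -0.88 to 1.82) for Peg3 and 0.60 (95% interval -0.67 to 1.87) for Plagl1. For Peg3 it was 0.04 without Mirc11-/- replicate 2 and 0.21 without wildtype replicate 3, and for Plagl1 0.29 without Mirc11-/- replicate 1 and 0.33 without wildtype replicate 2.

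**Figure D4:**
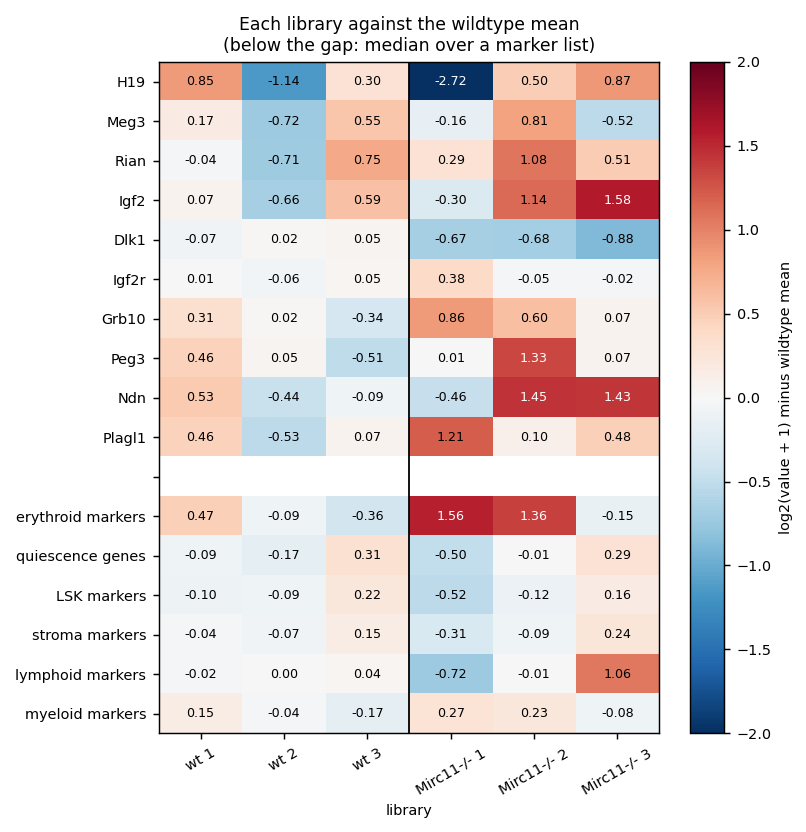
Log2(value + 1) of each library minus the wildtype mean for the 10 imprinted genes, and below the gap the median of the same difference over marker lists. Grb10 and the erythroid markers are highest in Mirc11-/- replicates 1 and 2, while Ndn and Igf2 are highest in Mirc11-/- replicates 2 and 3, and Dlk1 is below the wildtype mean in all 3 Mirc11-/- libraries.

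Stroma expresses several of these genes at high levels, so its markers were looked at beside them. Of 18 stroma markers, 14 were detected, and Col3a1, Dcn, Lum and Bglap were at 0 in all 6 libraries. The summed level was 3623, 4063 and 4773 normalized counts in wildtype and 3102, 3637 and 4582 in Mirc11-/-, nearly all of it from Runx2, Pdgfrb and Vcam1. The collagen gene Col1a2 had 19.7, 9.92 and 14.2 normalized counts in wildtype and 14.2, 31.2 and 22.1 in Mirc11-/-. The part of stroma in the values of H19, Igf2 and Dlk1 was not tested. Of the endothelial (12 tested), myeloid (12) and megakaryocyte and mast cell markers (11), limma called 0 and put 2 of each at an unadjusted p under 0.05, and DESeq2 called 1, the endothelial marker Pecam1.

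Of 19 cluster neighbours of the members in the table, 9 had no read and 9 could be tested, with 5 above and 4 below 0 and 0 called by limma, edgeR or DESeq2 (1, 3 and 3 at an unadjusted p under 0.05). Rtl1 and Dio3, which share the cluster of Dlk1, and Magel2, which lies next to Ndn, had no read in any library. In the Prader-Willi cluster, Ube3a, a ubiquitin ligase, had 1179, 1305 and 1493 normalized counts in wildtype and 1769, 1704 and 1539 in Mirc11-/-, without overlap, at a log2 fold change of 0.34 (SE 0.11, limma adjusted p = 0.479). Snrpn and Snurf, which share 1 transcript and have identical values, had 3.94, 1.98 and 8.11 normalized counts in wildtype and 0.946, 74.8 and 14.1 in Mirc11-/-, so that 1 library carried most of the reads. Each is counted above as a separate neighbour. Both are among those above 0 and those at an unadjusted p under 0.05 by edgeR and DESeq2. Mkrn3 had 17.9 to 27.4 and 17.97 to 37.2, Peg12 59.8 to 82.8 and 36.3 to 93.6, and Slc22a3, next to Igf2r, 1343 to 1955 and 1088 to 2167 normalized counts in wildtype and in Mirc11-/-. By limma, Ube3a alone of these had an unadjusted p under 0.05.

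Imprinted genes outside the 10 were centred on 0. Of 72 listed, 69 were in the table, 16 had no read and 49 were tested, with 25 above and 24 below 0 and a median log2 fold change of 0.01. The 49 count Snrpn and Snurf, which have identical values, as separate genes. limma, edgeR and DESeq2 each called 0 of the 49, with 2 (1 higher, 1 lower), 4 and 5 at an unadjusted p under 0.05. The one that was lower was Atp10a, a lipid transporter gene at the far end of the Prader-Willi cluster, with 1385, 1562 and 1583 normalized counts in wildtype and 1105, 998 and 1379 in Mirc11-/- (log2 fold change -0.39, SE 0.13, limma adjusted p = 0.488). Pon2 (log2 fold change 0.29), Ampd3 (0.56) and Inpp5f (-0.17) had the next smallest p-values and overlapped between genotypes. Without Mirc11-/- replicate 3, Ampd3 (0.92, limma adjusted p = 0.0271) and Atp10a (-0.52, limma adjusted p = 0.0242) were past the threshold, 2 of the imprinted genes in a fit that called 3.4% of all genes. The 48 miRNA genes hosted in the imprinted clusters that the table lists had no read in 45 cases, and 0 could be tested. The libraries were made from poly(A)-selected RNA, so mature miRNAs were not measured.

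The IGF axis, which several members serve, was expressed but showed no called change. Of 25 listed genes 18 were tested, and limma, edgeR and DESeq2 each called 0 and put 3 at an unadjusted p under 0.05. Besides Grb10 these were, by limma, Igfbp4, a binding protein that holds IGFs, at 8997, 9461 and 8860 normalized counts in wildtype and 7238, 7339 and 8636 in Mirc11-/- (log2 fold change -0.24, SE 0.09, limma adjusted p = 0.546), and Igf2bp3, which binds Igf2 mRNA, at 72.0, 81.4 and 47.6 and at 42.6, 40.5 and 39.2 (log2 fold change -0.67, SE 0.26, limma adjusted p = 0.566). Both were without overlap and lower in Mirc11-/-. Insrr had the next smallest p (log2 fold change 0.62, limma adjusted p = 0.657). The receptors Igf1r (2344 to 2938 normalized counts over the 6 libraries) and Insr (966 to 1237) had log2 fold changes of -0.03 and 0.12.

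Genes that set, keep or remove DNA methylation and related marks at imprints, such as DNA methyltransferases and Tet enzymes, were tested in 19 of 22 cases, with 0 called by limma, edgeR or DESeq2, 1 at an unadjusted p under 0.05 in each and a median log2 fold change of 0.00. By limma that one was Tet3, which oxidizes methylated DNA, at 1730, 1749 and 2032 normalized counts in wildtype and 2251, 2275 and 2168 in Mirc11-/-, without overlap (log2 fold change 0.28, SE 0.09, limma adjusted p = 0.473). Tet2 was also without overlap but lower, at 990, 1000 and 994 in wildtype and 982, 874 and 800 in Mirc11-/- (log2 fold change -0.17). Of all genes tested, 6.42% were without overlap and higher and 6.53% lower. Ehmt2 had a log2 fold change of -0.13 and Dnmt3l 0.65.

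Genes of stem cell identity and rest were read beside the members, which are known from resting stem cells. All 30 were tested, with 12 above and 18 below 0 and a median log2 fold change of -0.06. limma and edgeR called 0 and DESeq2 called 1, with 4, 4 and 5 at an unadjusted p under 0.05. The early response factor Egr1 had 14455, 17190 and 29965 normalized counts in wildtype and 6371, 12656 and 9382 in Mirc11-/- (log2 fold change -1.10, SE 0.30, limma adjusted p = 0.437). The cell cycle inhibitor Cdkn1a had 326, 560 and 598 in wildtype and 299, 281 and 269 in Mirc11-/- (log2 fold change -0.76, SE 0.21, limma adjusted p = 0.444), and was the gene that DESeq2 called (adjusted p = 0.0374). Gfi1, a repressor that limits stem cell division, had a log2 fold change of -0.30 (SE 0.09, limma adjusted p = 0.451), and Vwf, a marker of platelet-biased stem cells, one of 0.50 (SE 0.18, limma adjusted p = 0.524). Cdkn1c, itself an imprinted inhibitor of the cell cycle, had 68.0, 68.5 and 103 normalized counts in wildtype and 56.7, 92.4 and 104 in Mirc11-/-, with a log2 fold change of 0.06.

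For the most abundant member of each role by normalized count, the 3 genes with the most similar pattern were taken by Pearson r of log2(value + 1) over the 6 libraries, among about 11402 genes with a mean of at least 50. With so many genes and 6 libraries, high values occur for any gene. For Meg3 they were Tbc1d12 (r = 0.983), Poln (0.968) and 9330151L19Rik (0.961), for Dlk1 Dand5 (0.992), Tomm20 (0.991) and Ddx3x (0.982), for Igf2r Ogfod1 (0.992), Srprb (0.992) and Vps11 (0.981), and for Ndn 1700048O20Rik (0.993), Clstn3 (0.987) and Mir692-2b (0.985). The number of genes over 0.9 was 9 for Meg3, 89 for Dlk1, 78 for Igf2r and 67 for Ndn. Dand5 had 75.0, 75.4 and 75.0 normalized counts in wildtype and 43.5, 45.7 and 40.3 in Mirc11-/-. It was chosen for its likeness to Dlk1, so its split between genotypes follows from that choice and is no separate result.

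**Figure D5:**
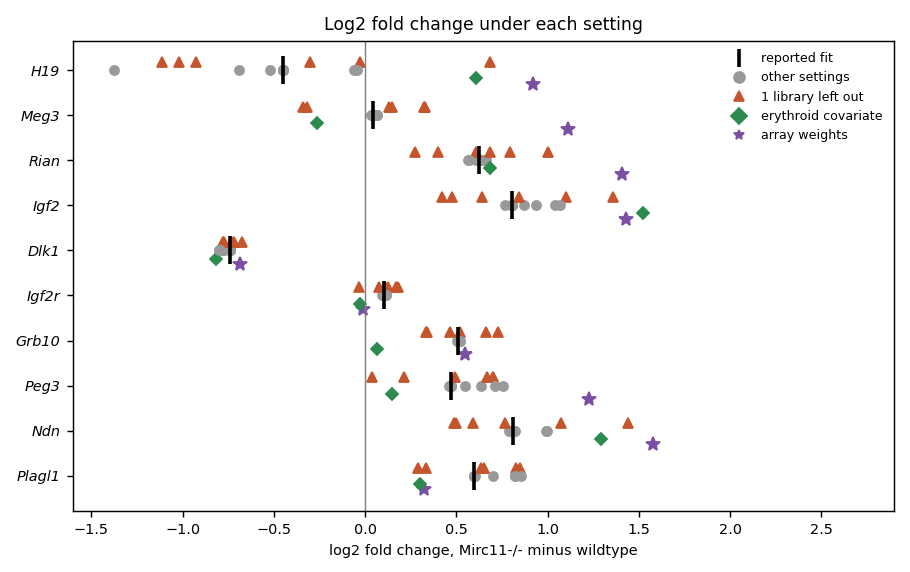
Log2 fold change of each imprinted gene under the reported fit (black bar), with 1 library left out (triangles), with the erythroid covariate (diamonds), with array weights (stars) and under the other settings (grey). Dlk1 stays between -0.82 and -0.68, while H19, Meg3 and Igf2r have values on both sides of 0 and Grb10 falls to 0.06 with the covariate.

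Some values carry reads that could belong to a neighbour. H19 contains Mir675, Igf2 overlaps Igf2os and Mir483, Igf2r overlaps Airn, Peg3 overlaps Peg3os, Plagl1 overlaps Hymai, Ndn overlaps Gm32061, Grb10 overlaps LOC102631979, and Meg3 and Rian overlap Rtl1 and small RNA genes. Whether reads were counted by strand is not given in the sources used here.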

How the data were processed

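RNA-seq of LSK cells was analysed for 3 wildtype and 3 Mirc11-/- libraries, grouped by the submitters' labels. The labels and methods give the gate as Sca1+, and 1 legend of the study as Sca1-. Libraries were made from poly(A)-selected RNA with a NEBNext Ultra II kit. STAR, Cufflinks and the build mm10 are named in the processing notes, and hg19 in the supplementary methods. The symbols are mouse symbols, so mm10 was taken, and neither tool versions nor the annotation were found. The authors deposited 1 table, called FPKM, whose signal values are not per length. In each library 100% of them were whole multiples, within 0.001, of 1 step of 0.946 to 1.04, that is, reads over a size factor.

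Entries of a symbol were summed, and 15662 genes had a mean of 1 or more and were tested. Genotypes were compared by limma 3.58.1 (R 4.3.3) on log2(value + 1), two-sided, using a trend of variance on mean, and p-values were adjusted by Benjamini-Hochberg over all genes, at a threshold of 0.05. Other settings tried were a pseudocount of 0.1 or 0.5, a minimum mean of 5 or none, median-ratio, TMM and quantile scaling, limma with array weights or without the trend, a replicate block, leaving out each library, an erythroid covariate, and edgeR 4.0.16 and DESeq2 1.42.0 on the recovered reads. The fits were tested on simulated counts. Every pair of libraries differed beyond counting error, so none was counted as a duplicate.

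Named genes were the 10 members, the 4 genes of each other list with the smallest p and a mean of 10 or more, cluster neighbours with a mean of 10 or more, and the 3 genes most like the most abundant member of each role. Airn, Rtl1, Dio3, Magel2, Igf1r, Insr, Cdkn1c and the stroma genes at 0 were added after their values were seen, and the rule's remaining genes are not reported here. Members and lists were chosen with earlier results of these data known. Levels per kb used GENCODE M21 exons, and sequences came from RefSeq tables (GRCm38.p6) and GENCODE transcripts.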

Additional observations from a re-analysis of the deposited data

How the results depend on the processing

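None of the 10 imprinted genes was called under any alternative but array weights, which called 6 higher and 1 lower, with 8 higher and 6 lower among the imprinted genes outside them and 2868 higher and 2809 lower of all genes. Snrpn and Snurf, which have identical values, both count among the 8. The fit with array weights put 97.7% of the Mirc11-/- weight on replicate 2. Its log2 fold changes reversed H19 (0.92) and Igf2r (-0.013), and the erythroid covariate reversed H19 (0.61), Meg3 (-0.26) and Igf2r (-0.026). The cause was not tested. With 1 library left out, log2 fold changes ran from -1.11 to 0.69 for H19, -0.34 to 0.33 for Meg3 and -0.035 to 0.179 for Igf2r. All-gene calls then ran from 1 to 303 higher and from 0 to 228 lower, and calls of imprinted genes outside the members from 0 to 1 higher and from 0 to 1 lower, with the highest numbers without Mirc11-/- replicate 3. Without a trend, 2 genes were higher and 2 lower of all genes, and DESeq2 called 38 and 87.

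With a replicate block, 3 genes were higher and 27 lower of all genes, and Grb10 (0.51, SE 0.09) had a limma adjusted p of 0.0975. Libraries of the same number correlated at 0.07, -0.06 and 0.10 in their deviations, and 3 of 6 correlated best with their own number. Whether libraries of the same number were prepared together is not given in the sources used here. So few correlations cannot decide it. The other 7 members kept their direction under every alternative run, the filter of 5 leaving out Peg3 and Plagl1. Depth limits H19, Igf2, Peg3 and Plagl1 most.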

Other observations

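The ratios between neighbours within the 2 clusters that hold several members were computed after their values had been seen, 4 ratios in all. Meg3 over Rian, 2 RNAs of 1 strand, was 6.27, 5.56 and 4.62 in wildtype and 3.90, 4.38 and 2.59 in Mirc11-/-, without overlap (5.48 ± 0.828 against 3.62 ± 0.924, SD, n = 3, two-sided exact permutation p = 0.1, the smallest that 3 against 3 allows, adjusted 0.133). Rian over Dlk1 was 1.00, 0.562 and 1.62 in wildtype and 2.00, 3.56 and 2.75 in Mirc11-/-, also without overlap (exact permutation p = 0.1, adjusted 0.133). It rests on 9 to 32 reads of Rian and 8 to 16 of Dlk1 in each library. Dlk1 was itself without overlap between genotypes, so this ratio is not independent of that split. The ratios among Meg3, Rian and Dlk1 share genes and are not separate tests. Meg3 over Dlk1 was 5.63 ± 2.26 in wildtype and 10.2 ± 4.68 in Mirc11-/- (SD, n = 3, exact permutation p = 0.2, adjusted 0.2), with overlap. H19 over Igf2 was 2.75, 1.00 and 1.17 in wildtype and 0, 0.889 and 0.846 in Mirc11-/- (exact permutation p = 0.1, adjusted 0.133), on 11 reads or fewer of H19 in each library.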
